A study of Mus musculus with 2 samples.

Results

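The A2m Spon1 fibroblasts are 157 of the 4924 cell barcodes that 2 droplet libraries of mouse parathyroid glands hold, 42 in replicate 1 and 115 in replicate 2. They were chosen by expression. A barcode needed at least 500 genes, under 15% mitochondrial UMIs (unique molecular identifiers, one per counted transcript) and under 1% Pth UMIs. It counted as a fibroblast when Col1a1, Col1a2, Col3a1 and Dcn together took at least 0.2% of its UMIs and Ptprc and Cdh5 had at most 1 UMI each, which 229 and 451 barcodes met. A fibroblast belonged to the A2m Spon1 set when more of the genes A2m, Spon1, Unc5c, Sntg1 and Lrat had a UMI than of either other set of 5. Those sets were Pappa2, Cilp, Fndc1, Gpc3 and Ndnf, which chose 55 and 92 Pappa2 Cilp fibroblasts, and Apod, Cxcl14, Ntrk3, Ptn and Srpx, which chose 93 and 154 Apod Cxcl14 fibroblasts. A further 39 and 89 fibroblasts tied between sets and entered no set, nor did 1 fibroblast of replicate 2 that had no UMI of any set gene.

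Both libraries were made from glands of adult Gcm2-/- mice on a BDF1B6 background that had been complemented with Pth-tdTomato mouse embryonic stem cells, and there was no other genotype or treatment. Gcm2 encodes the transcription factor that the parathyroid gland needs to form, and in complementation donor stem cells fill the place of the organ the host cannot build. In replicate 1 the pool came from 3 animals of 9 to 12 weeks, with a blood cell chimerism of 50 to 70%. In replicate 2 it came from 5 animals of 6 to 13 weeks, at 60 to 70%. Males and females were pooled, so no value below belongs to a single mouse, and a fibroblast may come from host or donor. The libraries are separate pools of mice and count as 2 replicates.

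Fibroblasts build and turn over the collagenous stroma of an organ, and secrete growth factor inhibitors, protease inhibitors and chemokines that act on neighbouring epithelium, vessels and nerves. Organs usually hold several fibroblast states, some lying in the outer sheath around vessels and some between the parenchymal cells. In the parathyroid gland the stroma lies around cords of chief cells, which secrete parathyroid hormone.

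The label was checked against markers of 22 cell types and sets. The 7 fibroblast markers that the rule did not use (Pdgfra, Lum, Mfap5, Col5a1, Col6a1, Fbln1 and Gsn) summed to 9795 and 11304 CPM (UMIs of a gene per 1000000 UMIs, summed over the cells of a set in a library) in replicates 1 and 2, against 256 and 341 CPM in the other cells with little Pth. Macrophage markers summed to 27.5 and 18.6 CPM in the A2m Spon1 cells against 4621 and 6140 CPM in those other cells, and 6 of 7 T or NK cell markers had no UMI. Endothelial markers summed to 91.9 and 96.9 CPM, with Kdr highest. The limits on Ptprc and Cdh5 are part of the rule and lower the macrophage, T cell and endothelial sums by choice. The 10 genes with the largest excess over the other cells with little Pth held 6 genes that the rule used (Col1a1, Col1a2, Col3a1, Dcn, Sntg1 and Ptn), beside Lum, a fibroblast marker outside the rule, and Lama2, Clec3b and Inmt, which were on no marker list. Pth itself had a UMI in 100% of A2m Spon1 cells at a median of 0.119% of a cell's UMIs in both libraries, and 1699 and 1827 CPM in the other non-parathyroid cells, a level shared by cell types that do not make the hormone. Gcm2 had 1 and 6 UMIs in the A2m Spon1 cells and Casr, the calcium-sensing receptor of chief cells, had 1 and 2.

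The A2m Spon1 cells were sequenced at least as deeply as the cells of the other sets. Their medians were 24462 and 21698 UMIs per cell, against 22234 and 19467 in Pappa2 Cilp and 19355 and 18312.5 in Apod Cxcl14 cells. The tied fibroblasts had medians of 24648 and 19831 UMIs. The summed counts of the A2m Spon1 cells were 946683 and 2477453 UMIs. No A2m Spon1 cell was predicted to be a doublet by Scrublet, although that caller marked only 21 and 8 barcodes over all cells, and the labels state that doublets were gated out by flow cytometry before capture. The libraries shared 3 barcodes, and 0 of them were A2m Spon1 cells.

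The set formed 18.3% of the fibroblasts in replicate 1 (95% exact binomial interval 13.5 to 24.0) and 25.5% in replicate 2 (21.5 to 29.8). These intervals cover counting error only. The limits that define a fibroblast had gaps among cells led by the A2m set, but few such cells lay outside them. There were 3 and 4 under the collagen and decorin limit and 1 and 5 over the Pth limit. The lowest collagen and decorin share among the A2m Spon1 cells was 0.769% and 1.48% in the 2 libraries, and the highest among A2m-led cells outside the limit was 0.0184% and 0.169%. For Pth the highest share among the A2m Spon1 cells was 0.465% and 0.523%, and the lowest among A2m-led cells over the limit was 8.29% and 8.20%. The boundary between fibroblast sets had no such gap. The A2m set led by a single gene in 28 of 42 and 78 of 115 cells, by 2 genes in 11 and 29 and by 3 or more in 3 and 8. Of the tied fibroblasts, 30 and 81 were level between the A2m set and another, 14 and 41 of them with the Apod Cxcl14 set, 8 and 20 with the Pappa2 Cilp set and 8 and 20 with both. The median A2m Spon1 cell also had a UMI for 2 of the 5 Pappa2 Cilp genes in each library and for 3 and 2 of the Apod Cxcl14 genes.

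The 5 genes that chose the cells differ in how far they separate them, and are given as a description because the rule used them. A2m, on chromosome 6 (mm10, chr6:121635376-121679227), encodes alpha-2-macroglobulin, a secreted inhibitor that traps proteases of many classes. It stood at 638 and 885 CPM in A2m Spon1 cells, 126 and 106 in Pappa2 Cilp cells and 20.1 and 64.7 in Apod Cxcl14 cells. Lrat, on chromosome 3 (chr3:82892579-82903973), encodes the acyltransferase that turns retinol into retinyl esters, the stored form of vitamin A. It stood at 171 and 157 CPM, against 18.0 and 9.1 in Pappa2 Cilp and 47.9 and 65.8 in Apod Cxcl14 cells, and 88.1% and 86.1% of A2m Spon1 cells had a UMI.

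Sntg1, on chromosome 1 (chr1:8361475-9299878), encodes gamma-1-syntrophin, an adaptor that binds dystrophin and dystrobrevin. Of the 5 genes it was detected in the fewest cells of the set, 33 of 42 in replicate 1 and 62 of 115 in replicate 2, at 957 and 490 CPM, against 8.2 to 102 CPM in the other 2 sets. The tied fibroblasts had 426 and 356 CPM. Spon1, on chromosome 7 (chr7:113765998-114043370), encodes F-spondin, a secreted matrix protein. It had a UMI in every A2m Spon1 cell but also in 67.7% to 91.3% of the cells of the other sets, at 675 and 1066 CPM against 335 to 754 CPM, so that it named the set without separating it. Unc5c, on chromosome 3 (chr3:141465216-141834924), encodes a receptor of the guidance cue netrin. Its levels were 243 and 201 CPM, while Pappa2 Cilp cells had 220 CPM in replicate 1 and 81.7 CPM in replicate 2. All 5 genes had a UMI in 25 of 42 and 36 of 115 cells. In the other cells with little Pth, at medians of 11805 and 8896.5 UMIs, A2m had a UMI in 0.58% and 0.825%, Lrat in 0.87% and 0.33% and Spon1 in 6.09% and 3.47%.

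**Figure D1:**
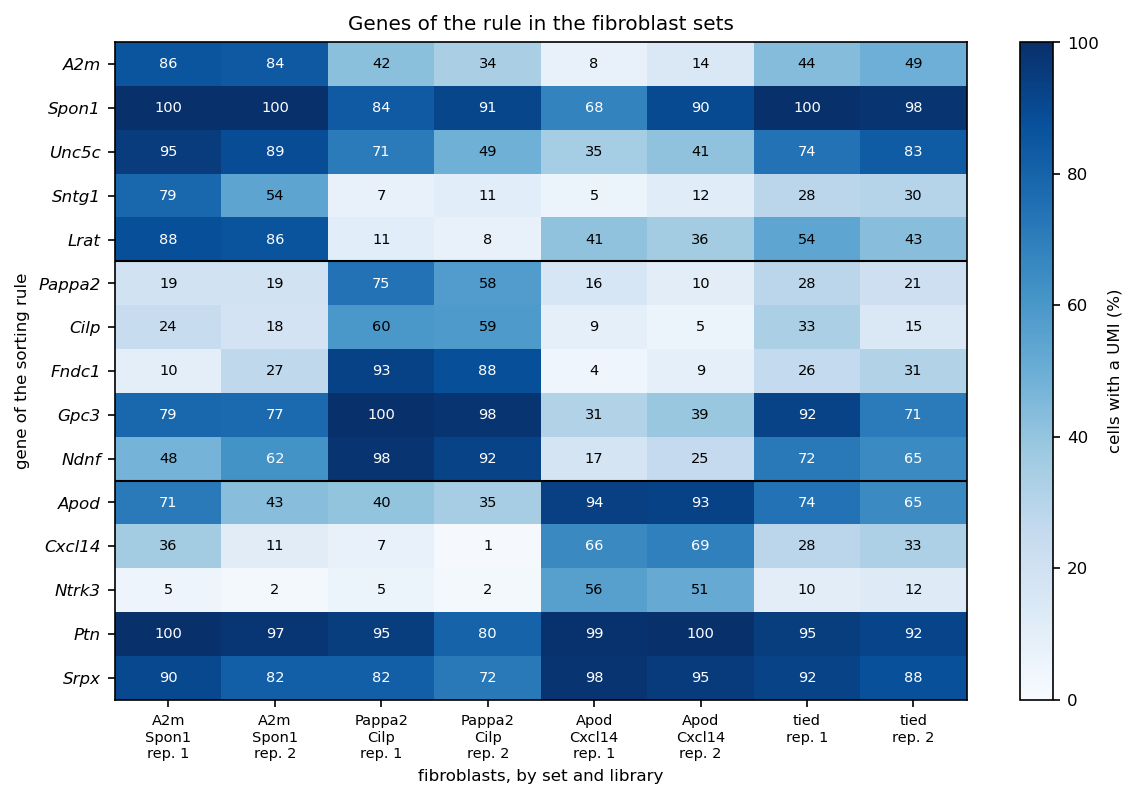
Share of fibroblasts with a UMI (%), printed in each square, for the 15 genes of the sorting rule (rows) in the A2m Spon1, Pappa2 Cilp and Apod Cxcl14 sets and the tied cells of each library (columns). The rule used these genes; Spon1 is found in every A2m Spon1 cell and, like Ptn and Srpx, in most fibroblasts of every set.

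The promoters of Lrat and Unc5c are shown because both genes chose the cells and have a RefSeq entry (GRCm38.p6, 250 bases before to 50 bases after the annotated start). The Lrat window is chr3:82903925-82904224 on the minus strand and the Unc5c window chr3:141465314-141465613 on the plus strand, each printed 5′ to 3′ along its gene. The Unc5c window lies wholly inside the gene span given above. That span came from another annotation, which places the start of Unc5c further upstream. Capitals mark GGGCGG, the core of a GC box, found on the opposite strand.
Lrat: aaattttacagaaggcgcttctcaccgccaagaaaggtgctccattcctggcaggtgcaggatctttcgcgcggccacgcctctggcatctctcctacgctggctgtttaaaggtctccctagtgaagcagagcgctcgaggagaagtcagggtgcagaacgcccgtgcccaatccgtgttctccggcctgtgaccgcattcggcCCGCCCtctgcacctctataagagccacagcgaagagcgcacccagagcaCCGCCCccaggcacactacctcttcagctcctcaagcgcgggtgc
Unc5c: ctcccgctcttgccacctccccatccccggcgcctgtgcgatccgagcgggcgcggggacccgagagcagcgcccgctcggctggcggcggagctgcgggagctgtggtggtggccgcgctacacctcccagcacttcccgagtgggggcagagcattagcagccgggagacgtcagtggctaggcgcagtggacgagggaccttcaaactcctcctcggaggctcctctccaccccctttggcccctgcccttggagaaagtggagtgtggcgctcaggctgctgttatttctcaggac
The motifs searched on both strands were the GC box core GGGCGG, the TATA box as TATAAA and the nuclear receptor hexamer AGGTCA, to which retinoid receptors bind. Lrat held 2 GGGCGG matches and none of the others, and Unc5c held no match. Of 32851 RefSeq promoter windows of this length, 35.7% hold GGGCGG, 13.6% TATAAA and 16.3% AGGTCA. The windows are rich in G and C, at 60.7% and 68.3% against a median of 52.7% over all windows. These libraries read the 3′ ends of transcripts and do not show which start was used.

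Outside the rule, few genes set the A2m Spon1 fibroblasts apart from both other sets. Genes were compared on CPM of the summed UMIs of each set and library, for 8571 genes with a mean of at least 10 CPM over the 6 sums, without the 15 set genes, the genes of the fibroblast and Pth limits and mitochondrial genes. A gene was called higher when its lower A2m Spon1 value was at least 2 times the highest value of the other sets, with 1 CPM added to each, and lower in the mirrored case. Since the cells were selected on their expression, these calls describe the set and no p-value was computed. By this rule 1 gene was higher (0.0117% of those tested) and 6 were lower (0.07%).

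Dtna was the gene called higher. It encodes alpha-dystrobrevin (chromosome 18, chr18:23415135-23659715), the cytoplasmic scaffold that binds dystrophin and the syntrophins, the family of Sntg1. Dtna stood at 81.3 CPM in replicate 1 and 83.1 CPM in replicate 2 of the A2m Spon1 cells, at 32.8 and 18.9 CPM in Pappa2 Cilp cells and at 35.9 and 22.2 CPM in Apod Cxcl14 cells. As the call requires, both A2m Spon1 values lay above all others, and the values of the other sets overlapped each other. The tied fibroblasts had 23.6 CPM in replicate 1, within the range of the other sets, and 64.2 CPM in replicate 2, above it. The cells over the Pth limit had 43.5 and 30.1 CPM, so Dtna was not confined to fibroblasts. Dtna had a UMI in 40.5% and 48.7% of A2m Spon1 cells against 18.5% to 23.6% of the cells of the other sets. The share was 30.8% and 44.9% in tied fibroblasts. In replicate 1 a single A2m Spon1 cell held 37.7% of the Dtna UMIs of the set. With each cell weighted alike, or with the sums thinned to equal totals, Dtna missed the 2-fold limit (log2 ratios of 0.91 and 0.84, against 1.16).

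The genes called lower included secreted regulators of several pathways. Timp3 encodes a metalloproteinase inhibitor that is held in the matrix. It stood at 67.6 and 66.6 CPM in A2m Spon1 cells, 209 and 291 CPM in Pappa2 Cilp cells and 275 and 386 CPM in Apod Cxcl14 cells. As the call requires, both A2m Spon1 values lay below every value of the other sets, and the tied fibroblasts lay between at 116 and 96.8 CPM. With set genes counted in thinned UMIs Timp3 missed the limit (log2 ratio of -0.74). Bmper, which encodes a secreted protein that binds bone morphogenetic proteins, stood at 5.3 and 10.9 CPM against 29.8 to 46.8 CPM. Cxcl12, the chemokine ligand of Cxcr4, stood at 2.1 and 2.4 CPM against 10.9 to 18.9 CPM. Trf, which encodes the iron carrier transferrin, had 6.3 and 9.3 CPM against 23.8 to 41.1 CPM, and Lvrn, which encodes the aminopeptidase laeverin, had 6.3 and 4.0 CPM against 24.6 to 36.6 CPM. With each cell weighted alike Lvrn missed the limit (log2 ratio of -0.35). That no A2m Spon1 value of these 5 genes overlapped the Pappa2 Cilp or Apod Cxcl14 values follows from the call. The tied fibroblasts had 25.7 CPM of Cxcl12 in replicate 1, above every set, and 2.3 CPM in replicate 2, below the A2m Spon1 cells of that library. Their Bmper stood at 95.4 CPM, above every set, and 32.1 CPM. For Trf and Lvrn the tied values lay between the A2m Spon1 cells and the other sets. Cxcl12 in A2m Spon1 cells rested on 2 and 6 UMIs, and 3 UMIs would be 3.17 CPM in replicate 1. In Apod Cxcl14 cells of replicate 1, 1 cell held 53.1% of the Cxcl12 UMIs.

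Wif1, a secreted Wnt inhibitor, was the other gene called lower, and its call rests mainly on the Pappa2 Cilp cells. It had 0 UMIs in the A2m Spon1 cells of both libraries, where 3 UMIs would be 3.17 and 1.21 CPM, and 33.6 and 25.1 CPM in Pappa2 Cilp cells. In Apod Cxcl14 cells it had 2 and 6 UMIs (1.1 and 2.1 CPM), too few to place the A2m Spon1 cells below them at this depth. Its call was lost with 5 CPM added in place of 1.

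Genes next below the limit on the high side were named after their values were seen. They were ranked by the gap between the A2m Spon1 values and all others, so their lack of overlap follows from that choice. Necab1, a neuronal calcium-binding protein, had 16.9 and 23.8 CPM against 3.3 to 8.6 CPM. Lipg, which encodes endothelial lipase, had 53.9 and 38.7 CPM against 3.3 to 21.8 CPM, and Trhde, which encodes an ectoenzyme that degrades thyrotropin-releasing hormone, had 44.4 and 40.8 CPM against 3.3 to 24.2 CPM. Mpp6, a membrane scaffold, had 192 and 198 CPM against 83.3 to 126 CPM. S1pr2, a receptor of sphingosine 1-phosphate, had 41.2 and 37.5 CPM against 18.5 to 24.2 CPM, and Gsta3, a glutathione transferase with close paralogs, had 77.1 and 48.0 CPM against 24.6 to 32.0 CPM. In each of these genes the lowest A2m Spon1 value was under 2 times the highest other value. In the tied fibroblasts Mpp6 had 152 and 179 CPM and Gsta3 42.9 and 43.5 CPM, between the A2m Spon1 cells and the other sets. Lipg and Trhde each had 20.4 and 21.2 CPM there, inside the range of the other sets. S1pr2 had 36.5 and 24.1 CPM there, and Necab1 2.1 and 16.0 CPM. Over all genes tested, both A2m Spon1 values lay above every other value in 327 (3.82%) and below in 591 (6.9%).

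An ion channel and a receptor gene in that group rested on few cells. Kcnd2, a voltage-gated potassium channel, had 67.6 and 41.2 CPM against 0 to 25.6 CPM in the other 2 sets, with a UMI in 21.4% and 9.6% of A2m Spon1 cells and 37.5% and 26.5% of its UMIs in the top cell. The tied fibroblasts had more Kcnd2 than the A2m Spon1 cells in both libraries, at 162 and 55.0 CPM. Dcc, which encodes the other main netrin receptor and partners with Unc5 proteins, had 56.0 and 45.2 CPM against 13.2 to 29.4 CPM, with a UMI in 19.0% and 11.3% of cells and 35.8% and 43.8% of its UMIs in the top cell. Wt1, a transcription factor of mesothelium and of some stromal cells, stood further down that order. It had 54.9 and 59.7 CPM against 9.8 and 39.4 CPM in Pappa2 Cilp and 2.7 and 28.0 CPM in Apod Cxcl14 cells. The tied fibroblasts had 27.9 and 47.6 CPM of Wt1 and 13.9 and 36.7 CPM of Dcc. Of the 5 mesothelial markers, Msln, Upk3b and Krt19 had no UMI in A2m Spon1 cells, and the sum of the list (54.9 and 60.1 CPM) was almost all Wt1.

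**Figure D2:**
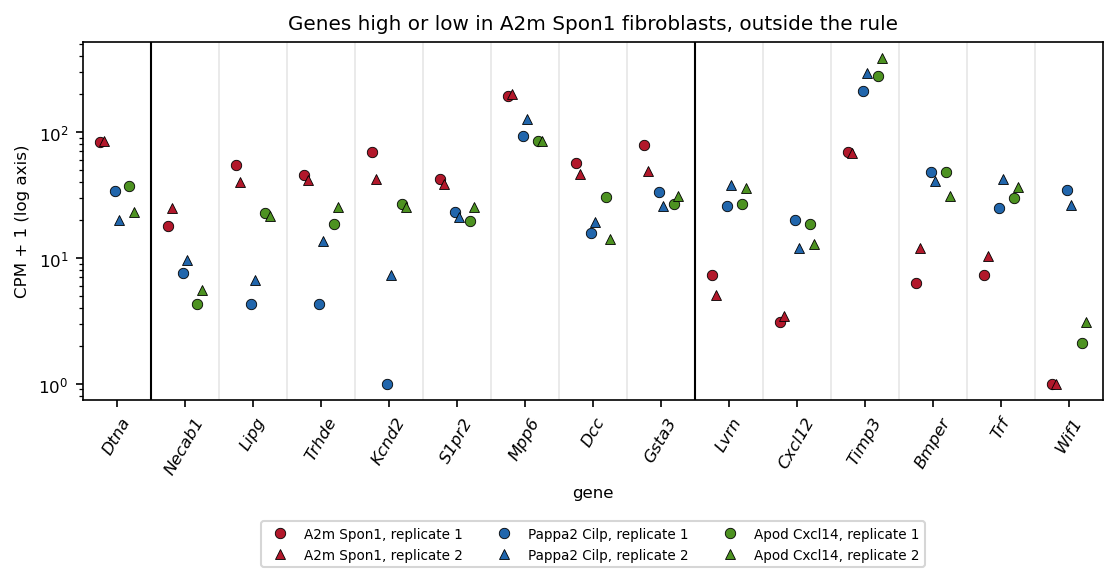
CPM + 1 (log axis) of 15 genes outside the rule in the 3 fibroblast sets, 1 point per set and library: Dtna, called higher (left), 8 genes next below the limit (middle) and the 6 called lower (right). By the choice of genes, both A2m Spon1 points lie above all others in the first 9 genes and below all others in the last 6. Wif1 is at 0 CPM in A2m Spon1 cells and near 0 in Apod Cxcl14 cells.

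Most of what distinguished the A2m Spon1 cells was shared with one neighbour. Against Pappa2 Cilp cells alone, 57 genes were higher (0.665%) and 66 lower (0.77%). Against Apod Cxcl14 cells alone, 15 were higher (0.175%) and 39 lower (0.455%). Between the other sets themselves, 105 genes were higher in Pappa2 Cilp cells (1.23%) and 146 in Apod Cxcl14 cells (1.7%). Of those 251 genes, the A2m Spon1 mean lay nearer to the Apod Cxcl14 mean in 179 (71.3%) and nearer to the Pappa2 Cilp mean in 72. The sets share no cells but share their libraries, and the cells were sorted by genes that differ between them.

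**Figure D3:**
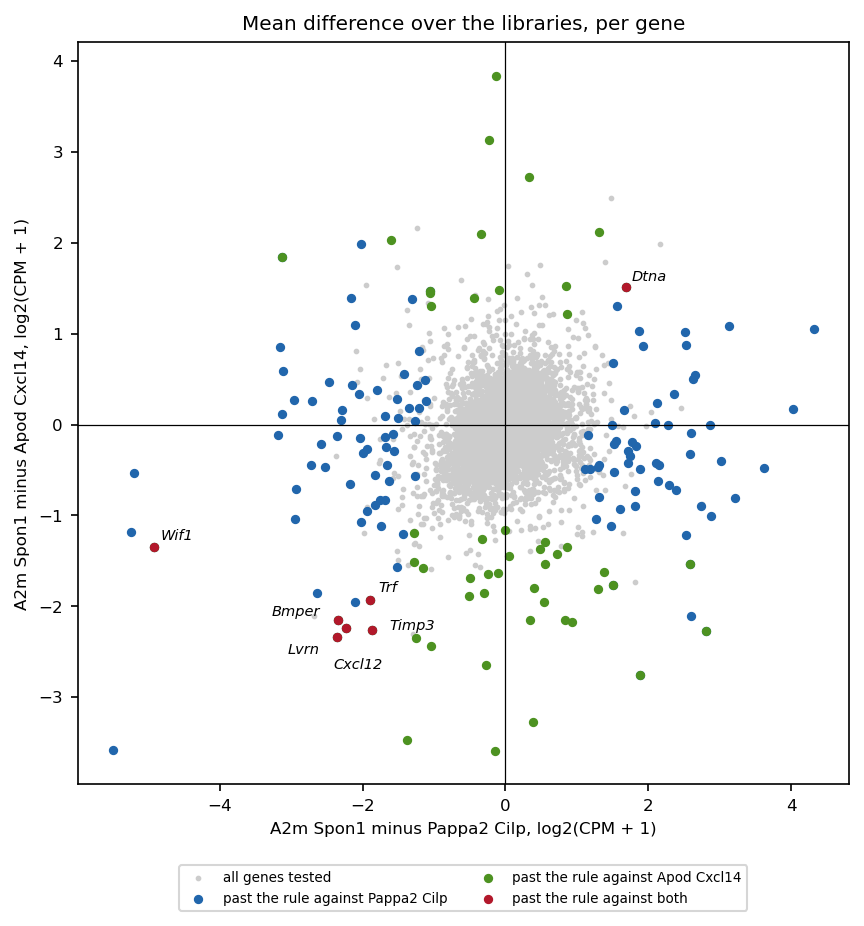
Difference in log2(CPM + 1) of A2m Spon1 cells from Pappa2 Cilp cells (horizontal) and from Apod Cxcl14 cells (vertical), mean of 2 libraries, 1 point per gene tested. The 7 named genes passed the 2-fold rule against both; 57 higher and 66 lower genes passed it against Pappa2 Cilp cells, and 15 higher and 39 lower against Apod Cxcl14 cells, most of them near one axis.

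With the Apod Cxcl14 cells, A2m Spon1 cells shared 51 genes higher than in Pappa2 Cilp cells (0.595%) and 44 lower (0.513%), where all 4 values had to pass. Vtn, which encodes the adhesive glycoprotein vitronectin, led by margin. It stood at 111 and 158 CPM in A2m Spon1 cells and 96.4 and 143 CPM in Apod Cxcl14 cells, but 8.2 and 6.3 CPM in Pappa2 Cilp cells. The A2m Spon1 and Apod Cxcl14 values interleaved, and neither overlapped the Pappa2 Cilp values. Adgrl3, which encodes the adhesion receptor latrophilin 3, had 162 and 107 CPM, with 151 and 116 CPM in Apod Cxcl14 and 19.7 and 14.9 CPM in Pappa2 Cilp cells. Adap2, a GTPase-activating protein, had 11.6 and 11.3 CPM against 0.8 and 0.6 CPM. Gucy1b1, a subunit of the nitric oxide receptor guanylate cyclase, had 22.2 and 15.7 CPM against 0.8 and 2.3 CPM. Chst15, which adds sulfate to chondroitin chains, had 31.7 and 23 CPM against 0.8 and 4.0 CPM. The Pappa2 Cilp level of Gucy1b1, Chst15 and Adap2 in replicate 1 was a single UMI.

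Genes that both A2m Spon1 and Apod Cxcl14 cells held low were likewise clear, and the ones given were picked after their values were seen. Aspn, which encodes the small proteoglycan asporin, had 1.1 and 28.7 CPM in A2m Spon1 cells against 272 and 314 CPM in Pappa2 Cilp cells. Prlr, the prolactin receptor, had 19.0 and 33.9 CPM against 254 and 223 CPM. Id2, an inhibitor of helix-loop-helix factors that responds to bone morphogenetic proteins, had 63.4 and 60.9 CPM against 295 and 230 CPM. In each the Apod Cxcl14 cells lay close to the A2m Spon1 cells, at 14.7 and 19.0 CPM for Aspn, 26.1 and 29.1 CPM for Prlr and 54.4 and 44.3 CPM for Id2.

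With the Pappa2 Cilp cells, A2m Spon1 cells shared 11 genes higher than in Apod Cxcl14 cells (0.128%) and 22 lower (0.257%). Tenm2, which encodes teneurin 2, a ligand of latrophilins, had 148 and 179 CPM in A2m Spon1 cells, 260 and 164 CPM in Pappa2 Cilp cells and 36.5 and 38.4 CPM in Apod Cxcl14 cells. The first 2 sets overlapped, and both lay above the third, as the call requires. Clvs2, a lipid-binding protein of endosomes, had 32.7 and 36.3 CPM against 2.7 and 3.5 CPM in Apod Cxcl14 cells. Brinp3 had 57.0 and 19.4 CPM against 0 and 4.8 CPM, with 51.9% of its UMIs in 1 cell of replicate 1. Art4, an ADP-ribosyltransferase of the cell surface, had 18.0 and 13.7 CPM against 1.1 and 2.1 CPM, and Plxna4, a semaphorin receptor subunit, had 12.7 and 6.9 CPM against 1.1 and 2.1 CPM. Tenm2 was also the highest of the 8 perineurial markers in A2m Spon1 cells, where Cldn1, Lypd2, Perp and Mpzl2 had no UMI.

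On the low side of that comparison, Lamc3, the laminin gamma-3 chain, had 10.6 and 9.7 CPM in A2m Spon1 cells and 65.9 and 83.4 CPM in Apod Cxcl14 cells. Mylk, the myosin light chain kinase of contractile cells, had 14.8 and 23 CPM against 96.9 and 75.1 CPM. Both genes were lower still in Pappa2 Cilp cells, where Lamc3 had 3.3 and 1.1 CPM and Mylk 7.4 and 13.1 CPM.

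**Figure D4:**
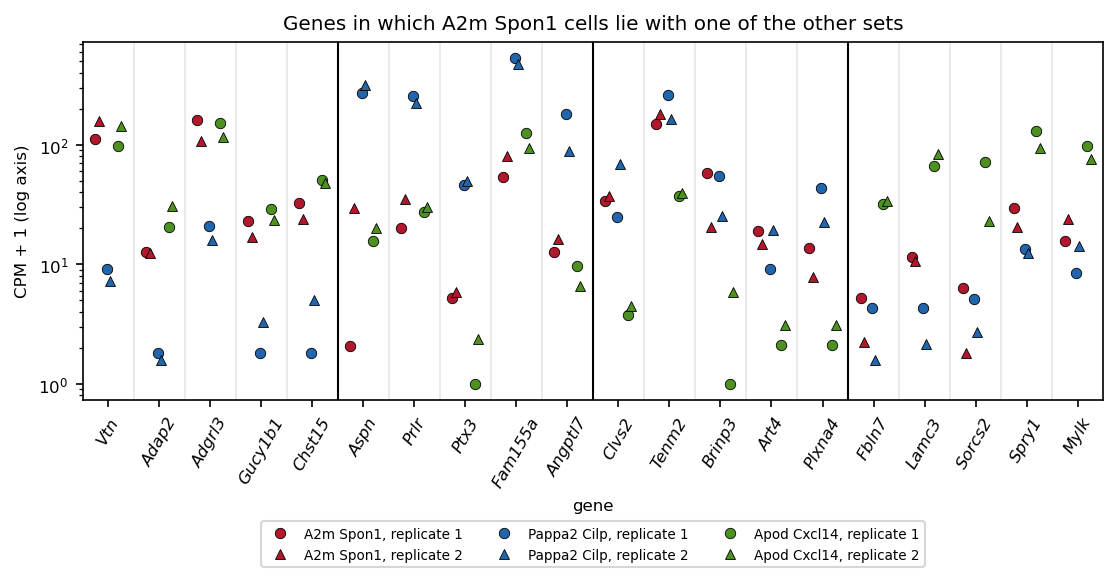
CPM + 1 (log axis) per set and library for genes in which A2m Spon1 cells lie with 1 of the other sets: 5 higher and 5 lower together with Apod Cxcl14 cells (left blocks), then 5 higher and 5 lower together with Pappa2 Cilp cells (right blocks). By the choice of genes, the points of the paired sets lie at least 2-fold above or below both points of the remaining set. The genes of the lower blocks were picked after their values were seen.

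The gene lists chosen for the tissue gave no further gene past the rule against both sets at once. Of 18 lists, 5 held 1 gene past the rule against both, namely Dtna, Timp3, Bmper, Wif1 and Cxcl12 as above, and 13 held none. The list counts below stand beside the shares over all genes tested. Those were 0.0117% higher and 0.07% lower than both sets. Against Pappa2 Cilp cells they were 0.665% and 0.77%, and against Apod Cxcl14 cells 0.175% and 0.455%. The median difference in log2(CPM + 1) from the mean of the other sets ran from -0.27 for chemokines and cytokines to 0.34 for collagens, beside -0.03 over all genes tested.

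The dystrophin complex links the cytoskeleton to laminin outside the cell, and 11 of its 20 genes were tested besides Sntg1. Dtna was the only one of the 11 past the rule against both sets, and the list median was -0.10. Dmd, encoding dystrophin, had 25.4 and 25.0 CPM in A2m Spon1 cells against 63.7 and 52.3 CPM in Apod Cxcl14 cells, a call against that set. Utrn, its homologue utrophin, had 112 and 111 CPM, inside the range of the other sets (103 to 137 CPM), as did the laminin receptor gene Dag1 with 100.3 and 108 CPM.

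Of the 35 retinoid genes, 19 were under the filter on low values, Lrat was used by the rule, and none of the 15 tested passed against both sets. Only Cyp1b1, a retinoid- and steroid-metabolising cytochrome, passed against 1 set, with 35.9 and 44.0 CPM against 104 and 93.8 CPM in Apod Cxcl14 cells. Rarb, a retinoic acid receptor that is itself a target of retinoic acid, had 166 and 147 CPM, above the Pappa2 Cilp cells at 41.0 and 97.7 CPM and level with the Apod Cxcl14 cells at 143 and 165 CPM. Aldh1a1, which makes retinoic acid, had 377 and 411 CPM against 419 to 693 CPM in the others. Stra6, the retinol uptake receptor, had 0 UMIs in A2m Spon1 cells. The list median was -0.06.

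Of 37 axon guidance genes tested besides Unc5c, none passed against both sets. Dcc and Adgrl3 were higher than in Pappa2 Cilp cells, and Plxna4 higher than in Apod Cxcl14 cells. The netrin gene Ntn1 had 0 UMIs in A2m Spon1 cells and at most 4.4 CPM in the others, and the netrin co-receptor Neo1 had 48.6 and 57.7 CPM, within the range of 44.3 to 73.8 CPM of the other sets. Slit3, a secreted ligand of Robo receptors, had 1705 and 1495 CPM, with 1210 to 1806 CPM in the others. The list median was -0.04.

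Of 23 collagens tested, 5 were higher than in Pappa2 Cilp cells, where 0.665% of all genes tested were, and none passed against Apod Cxcl14 cells, where 0.175% were higher and 0.455% lower. Col4a1, a chain of the collagen IV network of basement membranes, had 858 and 928 CPM against 392 and 395 CPM. Its partner Col4a2 had 344 and 322 CPM against 146 and 160 CPM. Col4a3 had 108 and 91.6 CPM against 21.3 and 32.0 CPM, Col4a4 had 134 and 125 CPM against 41.8 and 34.9 CPM, and Col6a6 had 105 and 76.7 CPM against 1.6 and 19.4 CPM. In Apod Cxcl14 cells each of these 5 was somewhat higher again, for Col4a1 at 1208 and 1303 CPM. Col4a5 and Col4a6, the remaining collagen IV chains, were not past the rule (603 and 493 CPM, and 311 and 199 CPM). The list median was 0.52 against Pappa2 Cilp cells and -0.11 against Apod Cxcl14 cells.

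Of 14 basement membrane laminins and linkers, none passed against both sets. Lamc3 lay between the sets, higher than in Pappa2 Cilp cells and lower than in Apod Cxcl14 cells. Egflam, encoding the dystroglycan ligand pikachurin, had 13.7 and 8.9 CPM against 35.9 and 32.2 CPM in Apod Cxcl14 cells. The list median was 0.45 against the former and -0.56 against the latter. Of 53 matrix glycoproteins and proteoglycans, none passed against both sets, with Aspn lower than in Pappa2 Cilp cells, Fbln7 and Ccn2 lower than in Apod Cxcl14 cells and a median of -0.07. Among 47 proteases and inhibitors, Timp3 alone passed against both, Adam23 and Adamts9 were higher than in Pappa2 Cilp cells, and the median was 0.06.

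Of 29 BMP and TGF-beta genes, Bmper passed against both sets. Bmp7 was higher than in Pappa2 Cilp cells, with 44.4 and 23.4 CPM against 4.9 and 6.9 CPM. The list median was -0.11. Of 28 Wnt genes, Wif1 was called against both, as described. Lgr5, a receptor of the Wnt enhancers R-spondins, had 126 and 115 CPM against 642 and 443 CPM in Pappa2 Cilp cells, and Sfrp4, a secreted Wnt antagonist, had 51.8 and 73.9 CPM against 247 and 259 CPM. Ror1, a Wnt5a receptor, was higher, with 260 and 194 CPM against 81.2 and 78.8 CPM. The Wnt list also had a median of -0.11.

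Of 28 chemokine and cytokine genes, Cxcl12 passed against both. Ccl11, the eosinophil attractant eotaxin, was higher than in Pappa2 Cilp cells, with 716 and 518 CPM against 68.9 and 148 CPM, and near the 765 and 763 CPM of Apod Cxcl14 cells. Cxcl5, a neutrophil attractant, was lower than in Apod Cxcl14 cells, with 11.6 and 14.1 CPM against 151 and 48.1 CPM. Of 35 growth factor genes, none passed against both, Pdgfc was lower than in Pappa2 Cilp cells, and Npr3, the clearance receptor of natriuretic peptides, was higher than in Apod Cxcl14 cells, with a median of -0.14. Of 13 complement genes, Vtn was higher and Cfb and Clu lower than in Pappa2 Cilp cells, with a median of -0.19.

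Of 23 hormone receptors tested, 1 was higher and 2 were lower than in Pappa2 Cilp cells (0.665% and 0.77% over all genes tested) and none passed against Apod Cxcl14 cells. Adra1a, the alpha-1A adrenergic receptor, was the one higher, with 44.4 and 33.1 CPM against 4.9 and 6.9 CPM, and 16.9 and 24.6 CPM in Apod Cxcl14 cells. Agtr1a, the angiotensin II receptor, was lower, with 3.2 and 4.0 CPM against 22.2 and 22.9 CPM. Ptgfr, the prostaglandin F receptor, was lower, with 50.7 and 37.9 CPM against 133 and 129 CPM. Pth1r, the receptor through which parathyroid hormone acts, had 35.9 and 30.3 CPM, overlapping the other sets at 18.3 to 33.2 CPM. The median was -0.20. None of the 45 patterning transcription factors tested passed against both sets, and their median was 0.03. Sox6 and Barx1 were lower than in Pappa2 Cilp cells, and the pharyngeal arch gene Hoxa3 had 45.4 and 28.3 CPM, within 25.3 to 44.0 CPM of the others in replicate 2 and just above in replicate 1.

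Of the 17 adventitial fibroblast genes tested, none passed against both sets. Ly6a, which encodes the surface protein Sca-1, was lower than in Pappa2 Cilp cells, with 79.2 and 52.9 CPM against 189 and 258 CPM. Opcml, a cell adhesion protein, was higher than in Apod Cxcl14 cells, with 514 and 468 CPM against 158 and 221 CPM. The list median was -0.44 against the first and 0.47 against the second. Immediate early and dissociation stress genes gave 0 calls among 36, with a median of -0.22 from both sets together. Of 34 MHC class I and interferon genes, Ifitm1 alone passed, against Pappa2 Cilp cells, and the median was -0.13. Of 5 cell cycle genes tested, Ccnd2, cyclin D2, was lower than in Apod Cxcl14 cells, with 24.3 and 53.3 CPM against 188 and 187 CPM, and the median was -0.24.

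Reporter transcripts were measured in every set. Gfp, an entry of the gene list whose meaning the labels do not give, stood at 357 CPM (95% exact Poisson interval 320 to 397) and 498 CPM (471 to 527) in A2m Spon1 cells, 564 and 1047 CPM in Pappa2 Cilp cells and 608 and 872 CPM in Apod Cxcl14 cells. Within each library the A2m Spon1 cells had the lowest level, but replicate 2 of the set reached close to replicate 1 of the others. Any Gfp UMI was seen in 81.0% and 80.0% of A2m Spon1 cells and in 80.9% and 79.4% of the other cells with little Pth. Those other cells had lower medians of 11805 and 8896.5 UMIs but more Gfp, at 3025 and 3376 CPM, so they give no background level. With cells thinned to the same number of UMIs, the shares were 53.7% and 50.4%, against 70.9% and 71.7% of those other cells. Whether the A2m Spon1 share reflects expression in these cells was not tested. At least 10 Gfp UMIs, a limit set after the values were seen, occurred in 13 of 42 (31.0%) and 30 of 115 (26.1%) A2m Spon1 cells. The shares were 34.5% and 46.7% of Pappa2 Cilp cells and 30.1% and 37.0% of Apod Cxcl14 cells. In replicate 1 the A2m Spon1 share lay between those of the other sets, and in replicate 2 it was the lowest. The counting interval in replicate 2 was 18.3 to 35.1% for A2m Spon1 and 36.3 to 57.4% for Pappa2 Cilp cells. Such intervals count cells within 1 library and are no test between sets. tdTomato, driven from Pth in chief cells, had 61.3 and 76.7 CPM in A2m Spon1 cells against 10014 and 10966 CPM in the cells over the Pth limit.

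The 2 libraries of A2m Spon1 cells were alike for most genes. Of 3521 genes with at least 50 CPM in one of them, 84 were at least 2-fold higher in replicate 1 and 52 in replicate 2. With 1 library each these have no replicate check, and the pools differ in mice, age range and chimerism. Ifi202b, an interferon-inducible DNA sensor, had 70 UMIs (73.9 CPM) in replicate 1 and 0 in replicate 2. It was also at 51.7 and 40.3 CPM in the Pappa2 Cilp and Apod Cxcl14 cells of replicate 1 and at 0 in those of replicate 2, so that it was seen in every set. Ifi202b has close paralogs among the Ifi200 genes, and how reads shared with them were treated was not tested. Hes1, a target of Notch signalling, had 303 CPM (269 to 340) and 65.4 CPM (55.7 to 76.3), and Il31ra, a cytokine receptor, 110 CPM (89.8 to 133) and 23 CPM (17.4 to 29.8). Both were also higher in replicate 1 of the other sets.

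Most of the other named differences between libraries were also seen outside the A2m Spon1 cells, and several rested on single cells. Asb4 had 3.2 and 61.4 CPM in A2m Spon1 cells, with 27.0% of the latter UMIs in 1 cell. The Pappa2 Cilp and Apod Cxcl14 cells stayed between 18.9 and 22.5 CPM, but the tied fibroblasts had 4.3 and 46.4 CPM. Kirrel3, an adhesion molecule, had 64.4 and 13.7 CPM in A2m Spon1 cells and 68.6 and 15.6 CPM in Apod Cxcl14 cells, but 50.0 and 62.3 CPM in Pappa2 Cilp cells. Pou2f2, a transcription factor best known from B cells, had 65.5 and 0.8 CPM, with 59.7% of the UMIs of replicate 1 in 1 cell. On the side of replicate 2, C7, a terminal complement component, had 4.2 and 69.8 CPM with 54.9% of the latter UMIs in 1 cell. Plcxd3 had 1.1 and 52.5 CPM, Angptl4, a lipase inhibitor, 11.6 and 58.5 CPM and Fst, encoding the activin antagonist follistatin, 12.7 and 52.5 CPM. Pou2f2, C7, Plcxd3, Angptl4 and Fst differed in the same direction in both other sets.

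**Figure D5:**
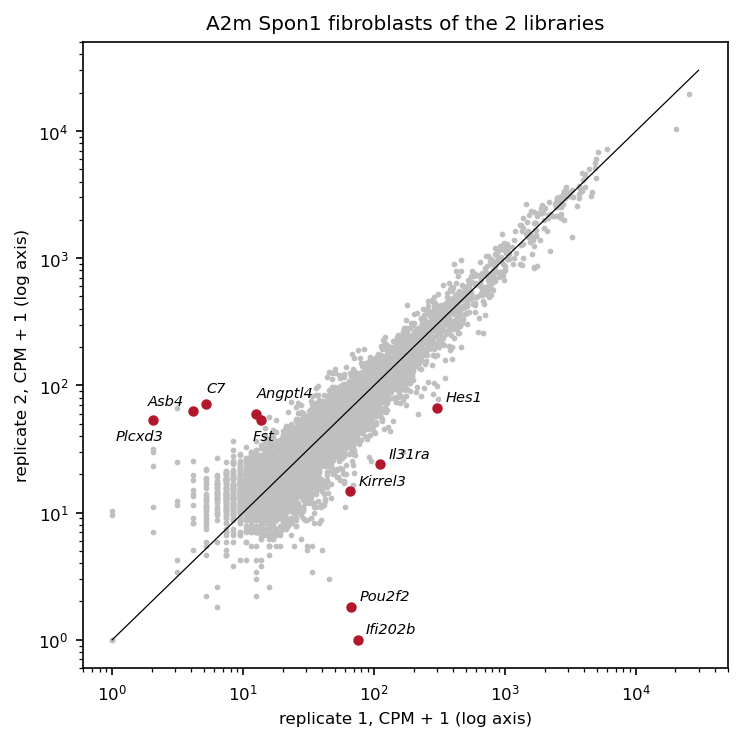
Level of each gene tested in the A2m Spon1 fibroblasts of replicate 1 (horizontal) and replicate 2 (vertical), CPM + 1 on log axes, with the line of equal levels. The 5 genes with the largest ratio each way among those with at least 50 CPM in a library are named; Ifi202b has 70 UMIs in replicate 1 and 0 in replicate 2.

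Among A2m Spon1 cells, after thinning each to 5000 UMIs (41 and 113 cells), the variance over the mean had a median of 1.10 across genes in both libraries. This ratio was not adjusted for expression level. The 6 genes named here had means from 4.54 (Mgp) to 130 (Malat1) UMIs per thinned cell in replicate 1. Their ratios were the highest when genes were ordered by the lower of the 2 libraries. Malat1, a nuclear RNA, had ratios of 11.4 and 10.0. Mgp, which encodes matrix Gla protein, an inhibitor of calcification, had 8.66 and 19.6. Per cell it ran from 0 to 4988 CPM around a median of 347 CPM in replicate 1 and from 0 to 13158 CPM around 485 CPM in replicate 2. Mt1, a metallothionein, had 10.5 and 8.32, Igfbp3, a carrier of insulin-like growth factors, 7.13 and 7.09, the actin-severing protein gene Gsn 6.02 and 9.52 and Cmss1 5.66 and 7.28. Igfbp3 was found in 85.7% and 86.1% of A2m Spon1 cells, yet its level in single cells ran from 0 to 3504 and 6025 CPM.

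A stricter form of the rule, in which the A2m set led by at least 2 genes, kept 14 and 37 cells. Those cells had 103 and 137 CPM of Dtna, against 14.1 to 24.8 CPM in the other sets under the same rule. Timp3 stood at 44.2 and 46.1 CPM against 229 to 462 CPM. Wt1, under the limit before, stood at 76.5 and 68.5 CPM against 0.8 to 28.8 CPM. Dtna stayed past the rule against both sets, as did 5 of the 6 genes called lower, Wif1 being the exception. The sums behind these values are smaller, and the stricter cells are a subset of the same cells, so they add no independent replicate.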

How the data were processed

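Single-cell libraries (10x 3′ kit) of 2 gland pools were analysed. The deposited matrices give unnormalized UMI counts, made by the authors with Cell Ranger 7.0.0 and the mm10 build, per the submitters' processing notes. The cell calling step is not described there. The files held 1406 barcodes with 41517620 UMIs and 3518 with 88283761. The members and gene lists were chosen with earlier results of these data known.

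Cells were assigned by the rule stated above, with no doublet removal. UMIs were summed per set and library and scaled to CPM; sums ran from 946683 to 2888476 UMIs. Genes were called by the fold rule. It was run on simulated Poisson counts with known fold changes but no spread between libraries or cells. That run therefore does not give its error rate in these data. No p-value was computed, since expression chose the cells. Named genes were the called genes, the 5 of largest margin shared with each other set, and up to 4 called genes and the highest uncalled gene of each list. The 5 largest ratios each way between libraries and the 6 most variable genes were also named. The genes of the sorting rule, the reporters, the markers, Gcm2, Casr and Pth1r were given as a description. All others are to be read as chosen after their values were seen, also where the text does not say so. Of 22 marker lists, those that bear on the set are given. Intervals are exact and cover counting error only. Alternatives changed the cell limits, the lead, scaling (edgeR 4.0.16 TMM, DESeq2 1.42.0 size factors), added CPM, filter, fold and library; sums thinned to the smallest total and the comparison within each library were added after seeing the data. Promoters came from RefSeq (GRCm38.p6). Python 3.11.15, scanpy 1.11.5 and R 4.3.3 were used. Values of some genes are not reported here.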

Additional observations from a re-analysis of the deposited data

How the results depend on the processing

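Counts are given as genes higher / lower in A2m Spon1 cells than in both other sets, then than in Pappa2 Cilp and in Apod Cxcl14 cells alone. They were 1 / 6, 57 / 66 and 15 / 39. With a lead of at least 2 set genes they were 7 / 23, 128 / 117 and 45 / 79, of which 1 / 5, 48 / 54 and 9 / 32 were shared with the first; the set held 14 and 37 cells, 12.6% and 20.2% of the cells of the 3 sets, its Gfp level was 318 and 584 CPM and its tdTomato level 99.2 CPM in replicate 2. With set genes counted in thinned UMIs, Gfp stood at 501 and 541 CPM, which brought replicate 1 near the other sets. A minimum of 30 CPM left 1 lower than both, 33 / 32 and 8 / 15, and no filter gave 16 / 24, 146 / 185 and 64 / 191. A fold of 1.5 gave 8 / 24, 164 / 167 and 73 / 123, and a fold of 3 gave 0 / 3, 24 / 29 and 5 / 14. These follow from the number of genes tested and the limit. Leaving out a replicate, with 1 library a set, gave 15 to 52 higher and 28 to 126 lower than both, 185 to 351 and 171 to 390 against Pappa2 Cilp, and 92 to 198 and 130 to 330 against Apod Cxcl14; the higher numbers came without replicate 2. Sums thinned to the smallest total gave 0 higher than both, since Dtna missed the limit, and 24 higher than Apod Cxcl14; the cause was not tested. Of the 7 genes called against both, all stayed past the limit under both other scalings, a Pth limit of 0.5%, the doublet score limit and the haemoglobin limit. Dtna and Lvrn missed it with each cell weighted alike, Timp3 with thinned set genes, Wif1 with 5 CPM added and with a lead of 2, and Bmper, Dtna, Trf and Wif1 at a fold of 3; no direction reversed. With a replicate block, each library's A2m Spon1 cells set against the other sets of the same library and both libraries past the limit, the counts were 3 / 13, 87 / 98 and 35 / 60, and all 7 genes stayed past it. The depth of the A2m Spon1 sums, smallest in replicate 1, limits genes under about 3 UMIs, or 3.17 and 1.21 CPM.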
